A study of Mus musculus with 24 samples.

Results

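mmu-miR-191 and mmu-miR-425 (miR-191 and miR-425 from here on) are microRNAs cut from hairpins that lie side by side on mouse chromosome 9, and their assays were 2 of the 584 microRNA assays run on soleus RNA. The assays were taken by name, in the form without an asterisk, and they are described here with the other arms of the same hairpins, miR-191* and miR-425*. The pair was chosen by its levels in the 4 groups, seen in earlier results of these data, in which miR-425 differed between groups. The group differences of both microRNAs are therefore given as descriptions, with a standard error and a 95% interval and with no p-value.

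The soleus, a calf muscle of mostly slow fibres in many mammals, was taken from 12 male mice aged 12 weeks in 4 groups of 3. MCK-PPARa mice carried a muscle-specific transgene for the nuclear receptor PPARα, and NTGa mice were their non-transgenic littermates. MCK-PPARb mice carried a muscle-specific transgene for PPARβ, and NTGb mice were their non-transgenic littermates. The MCK promoter, from muscle creatine kinase, drives expression in striated muscle fibres. RNA came from whole muscle, so fewer cells of a type and less RNA per cell cannot be told apart. Real-time PCR gave a cycle threshold (Ct) per well, the cycle at which fluorescence crosses a set level, so a lower Ct means more template.

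Many microRNA genes sit in clusters and are copied as 1 long transcript, from which each hairpin is then cut. Each hairpin yields a 5p arm and a 3p arm, of which 1 is usually kept in the Argonaute protein and guides it to messenger RNAs through the seed, bases 2 to 8. miR-191 is abundant in many tissues and is often used as a reference in PCR. In mouse red cell precursors it acts on enucleation, and in human breast cancer cells oestrogen receptor raises miR-191 and miR-425 together. In human cells miR-425 represses NPPA, the gene of atrial natriuretic peptide. PPARα and PPARβ are nuclear receptors that raise the expression of fatty acid oxidation genes.

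In the RefSeq annotation of GRCm38.p6, Mir191 lies at chr9:108568319-108568392 and Mir425 at chr9:108568777-108568861, both on the plus strand, with 384 bases between them. Both lie inside the protein-coding gene Dalrd3 (chr9:108567484-108572773), and Mir191 begins 835 bases after the start of that gene. Exon and intron borders were not used here. The mature arms are shown because their assays carry the comparisons below. The sequences are those of RefSeq, which matched all 4 arms, written 5′ to 3′ with the seed in capitals. The target sequences of the assays were not used here; the names without an asterisk were taken as the 5p arms and those with one as the 3p arms, and the comparison of arms rests on that match.
miR-191 (5p arm): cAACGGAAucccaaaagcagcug
miR-191* (3p arm): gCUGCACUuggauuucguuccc
miR-425 (5p arm): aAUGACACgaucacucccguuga
miR-425* (3p arm): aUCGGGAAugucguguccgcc
The 5p seeds match at 2 of their positions only, so the cluster partners are not members of 1 seed family. No other mature mouse microRNA in the RefSeq table had the seed of miR-191, and 1 other, miR-489-3p, had that of miR-425. The hairpins are printed with both arms in capitals, to show that miR-425 and miR-425* are cut from the same molecule.
Mir191 hairpin: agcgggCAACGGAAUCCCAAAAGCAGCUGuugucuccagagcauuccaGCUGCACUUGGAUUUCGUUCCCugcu
Mir425 hairpin: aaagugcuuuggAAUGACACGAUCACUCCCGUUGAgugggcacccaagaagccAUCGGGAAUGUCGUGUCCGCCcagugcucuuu

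Between 248 and 296 microRNAs per animal had a Ct under 35, the limit used for detection. Muscle microRNAs were present as the tissue label implies, with miR-133a at Ct 17.0 to 17.5, and 6 of 7 muscle markers were detected in all 12 animals. Liver miR-122 was detected in 1 animal. Levels below are log2 relative abundances, namely a card's reference Ct minus the Ct of the microRNA, the reference being the average over assays that no animal lacked, so 1 unit is a doubling if template doubles in each cycle. Group means were fitted with limma over 268 tested assays. MCK-PPARa replicate 1 correlated least with the remaining animals over the tested assays, at a median r of 0.933, and the other 11 had medians of 0.960 to 0.974. With 3 animals a group, the tests measure the spread between these animals only. NTGb replicate 2 differed most from its own group, by a median of 0.56 log2 units where the rest differed by 0.33 to 0.46. Values without these animals are given beside the results they move most.

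miR-191 stood at nearly the same Ct in every animal. It was at Ct 22.63, 22.57 and 22.67 in MCK-PPARa and at 22.79, 22.50 and 22.73 in NTGa. It was at 22.52, 22.69 and 22.61 in MCK-PPARb, against 22.86, 22.59 and 22.62 in NTGb. All 4 groups overlapped in raw Ct, and the whole range over 12 animals was 0.362 cycles. The SD of its raw Ct was 0.107, and 0 of the other assays among the 208 detected in all animals had a lower one; the median was 0.540. The mean Ct used as reference on that card ranged over 0.873 cycles. The level of miR-191 after scaling had an SD of 0.25 over 12 animals, and 19 of 31 assays with a mean Ct of 20 to 25 had a higher one.

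The Ct of miR-425 spread over 6.44 cycles. In MCK-PPARa it was at Ct 30.46, 31.24 and 31.60, against 33.89, 33.95 and 35.34 in NTGa. Every MCK-PPARa animal thus had a lower Ct than every NTGa animal, and NTGa replicate 3 was past the detection limit. In MCK-PPARb it was at 28.89, 31.74 and 32.63, against 31.34, 29.57 and 31.48 in NTGb, and these groups overlapped. The low group was NTGa, while the other non-transgenic group, NTGb, lay among the transgenic animals.

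**Figure D1:**
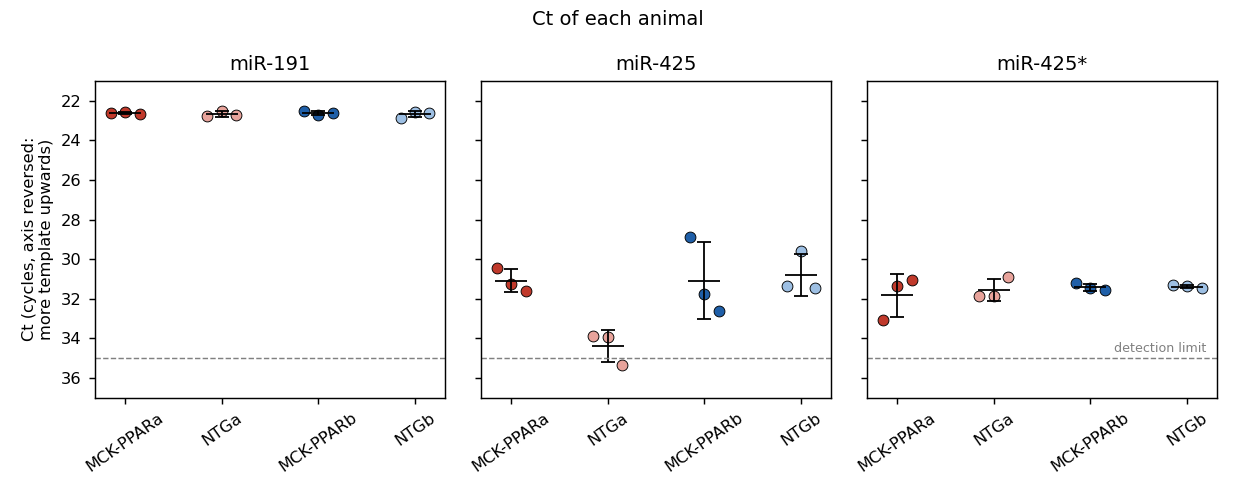
Ct of miR-191, miR-425 and miR-425* in each animal by group, on a reversed axis so that more template is higher; bars are the mean and SD of 3 animals and the dashed line is the detection limit of Ct 35. miR-191 forms a flat row near Ct 22.6, the NTGa animals are the lowest for miR-425, and miR-425* shows no such drop in NTGa.

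The other arm of the miR-425 hairpin did not show the low values in NTGa. miR-425* was at Ct 33.06, 31.35 and 31.08 in MCK-PPARa, against 31.85, 31.87 and 30.90 in NTGa. It was at 31.22, 31.48 and 31.57 in MCK-PPARb, against 31.33, 31.37 and 31.46 in NTGb. The highest Ct came from MCK-PPARa replicate 1, the animal that stood apart, and the remaining 11 animals lay between 30.90 and 31.87. miR-425* was run on the second card, where that animal also had the lowest reference Ct, 28.2, the others having 28.5 to 29.3. miR-191* was near the limit: of its 24 wells 13 had a Ct, from 33.5 to 38.5, and it was detected in 1 MCK-PPARa and 1 MCK-PPARb animal, so it was not tested. The seed-mate of miR-425, miR-489, was detected in 12 animals at Ct 29.7 to 31.3 by its mouse assay. The assay of rat miR-489 was also detected in 12 animals, at Ct 28.2 to 30.4.

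In MCK-PPARa against NTGa, miR-425 was 9.13-fold higher in the fit, a log2 difference of 3.19 (SE 0.78, 95% interval 1.47 to 4.92, n = 3 each). Its mean level was -3.13 ± 0.66 in MCK-PPARa and -6.32 ± 0.22 in NTGa (SD, n = 3), with NTGa replicate 3 at the floor of -6.56. With detection set at Ct 32, which no NTGa well of miR-425 reached, the difference was 0.49. miR-191 differed by 0.23 (SE 0.23, 95% interval -0.29 to 0.75) and miR-425* by -0.41 (SE 0.57, 95% interval -1.66 to 0.84). Without MCK-PPARa replicate 1 the difference of miR-425* was 0.38. After scaling, the MCK-PPARa and NTGa groups did not overlap for either member, miR-191 only just so, at 5.22 or more in MCK-PPARa and 5.19 or less in NTGa. In raw Ct these groups overlapped for miR-191, with a mean difference of -0.048 cycles, so their separation depended on the reference. With U6 as reference the log2 difference of miR-191 was 0.045. Groups that do not overlap, with MCK-PPARa higher, made up 14.9% of the 268 tested assays. The median log2 difference over all tested assays was 0.12. With an adjusted p under 0.05 as the call, limma called 6 of 268 assays (2.24%) in this comparison and 0 of the 2 members. At an unadjusted p under 0.05 there were 44 assays (16.4%). This contrast was in view when the pair was picked, so any call of miR-425 in it is a description.

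In MCK-PPARb against NTGb, both members were within their spread. miR-425 differed by -0.33 (SE 0.78, 95% interval -2.06 to 1.39), with -3.001 ± 1.96 in MCK-PPARb and -2.67 ± 0.57 in NTGb (SD, n = 3). MCK-PPARb replicate 1, at -0.78, was the highest of all 12 animals, and the difference was -1.43 without it. miR-191 differed by 0.04 (SE 0.23, 95% interval -0.48 to 0.55) and miR-425* by -0.27 (SE 0.57, 95% interval -1.52 to 0.98). limma called 0 of 268 assays (0%) in this comparison, with 23 (8.58%) at an unadjusted p under 0.05. Without NTGb replicate 2 the difference of miR-191 was -0.20 and that of miR-425 -0.0050.

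The largest of these differences of miR-425 lay between the non-transgenic groups. NTGa was 12.6-fold lower than NTGb, a log2 difference of -3.65 (SE 0.78, 95% interval -5.38 to -1.93, n = 3 each). The groups did not overlap, with NTGa lower, as in 9.7% of the 268 tested assays. miR-191 differed by -0.33 (SE 0.23, 95% interval -0.85 to 0.19) and miR-425* by -0.50 (SE 0.57, 95% interval -1.75 to 0.75), and both overlapped between the groups. For miR-191 it was -0.56 without NTGb replicate 2 and -0.16 without NTGb replicate 3. limma called 5 of 268 assays (1.87%), miR-425 among them, but this contrast was in view when the pair was picked. The call was also lost without any 1 of 9 animals, namely MCK-PPARa replicates 2 and 3, NTGa replicates 1, 2 and 3, MCK-PPARb replicate 2 and NTGb replicates 1, 2 and 3. The size stayed between -3.87 and -3.32 in these fits and was -0.96 with detection set at Ct 32. The difference from NTGb and that from MCK-PPARa share the NTGa animals.

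**Figure D2:**
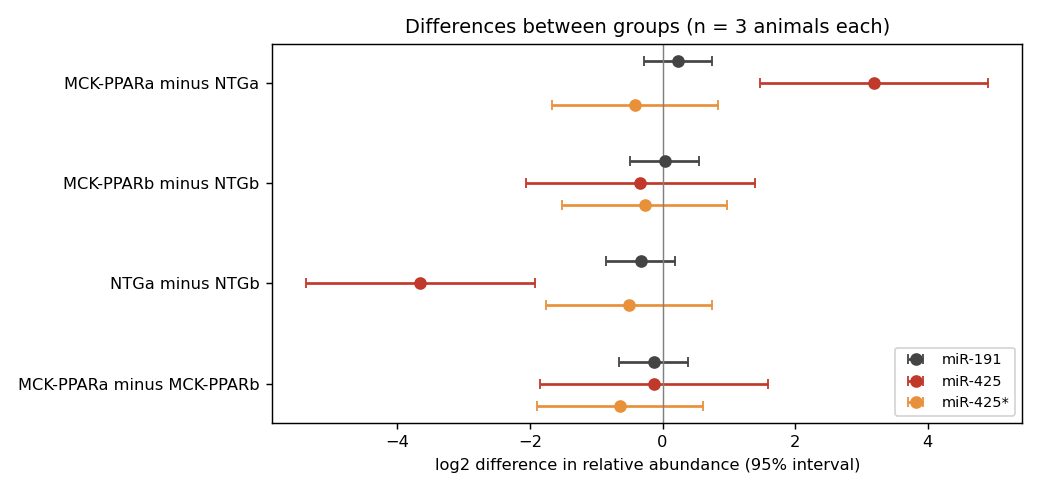
Fitted log2 differences of miR-191, miR-425 and miR-425* in 4 comparisons, with 95% intervals (n = 3 animals each). The miR-425 intervals in the comparisons with NTGa, 1.47 to 4.92 and -5.38 to -1.93, do not reach 0, and the other intervals all span it.

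From low to high, the mean levels of miR-425 ran NTGa (-6.32), MCK-PPARa (-3.13), MCK-PPARb (-3.001) and NTGb (-2.67). Only the step from NTGa to MCK-PPARa was without overlap. The transgenic groups differed by -0.13 for miR-425 (MCK-PPARa minus MCK-PPARb, SE 0.78, 95% interval -1.85 to 1.60). The 3 NTGa animals lay below all 9 others for miR-425 and for 3 assays in all, or 1.12% of the 268; they lay above all others for 8 assays (2.99%). For miR-191 the order was NTGa (5.11), MCK-PPARa (5.35), NTGb (5.44) and MCK-PPARb (5.48), and NTGb alone, from 4.98 to 5.82, overlapped every other group. The effect of MCK-PPARa minus that of MCK-PPARb, each against its own littermates, was 3.52 for miR-425 (SE 1.10, 95% interval 1.08 to 5.97) and 0.20 for miR-191 (SE 0.33, 95% interval -0.54 to 0.93); limma called 3 of 268 assays (1.12%) there and 0 of the 2 members, with 28 (10.4%) at an unadjusted p under 0.05.

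Because both assays shared a card, miR-425 could also be set against miR-191 within each animal, with no other reference. The Ct of miR-191 minus that of miR-425, with Ct 35 as the highest value allowed, was -8.47 ± 0.58 in MCK-PPARa and -11.6 ± 0.60 in NTGa (SD, n = 3). It was -8.48 ± 1.88 in MCK-PPARb and -8.11 ± 0.99 in NTGb. The ratio of miR-425 to miR-191 was thus 8.76-fold higher in MCK-PPARa than in NTGa, without overlap, and 11.3-fold lower in NTGa than in NTGb. It overlapped between MCK-PPARb and NTGb, with a log2 difference of -0.37 (SE 0.93), or 0.19 without NTGb replicate 2. These log2 differences, 3.13, -0.37 and -3.50, were close to those of miR-425 itself (3.19, -0.33 and -3.65).

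Whether the partners follow each other from animal to animal was described with 6 correlations of the levels, with no p-value, since the pair was chosen by these levels. Over 12 animals Pearson's r was 0.466 and Spearman's rho 0.441. Without the 3 NTGa animals, an alternative added after seeing the data, r over the other 9 was 0.00207 and rho 0.183. Taken as deviations from group means, r was -0.0423 (n = 12). Without NTGb replicates 2 and 3, the animals farthest from the median of miR-191, r was 0.804 over 10 animals, so the value depends on which animals are kept. Without NTGb replicate 2 alone it was 0.722 over 11 animals, and -0.184 over 12 with U6 snRNA as reference. In raw Ct miR-191 was at 22.59 in NTGb replicate 2 and 22.62 in NTGb replicate 3. Their reference Cts, 27.6 and 28.4, were the lowest and highest on that card. Over all animals the reference Ct had an SD of 0.262 and the raw Ct of miR-191 one of 0.107. The level of miR-191 in these correlations thus varied mainly with the reference.

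**Figure D3:**
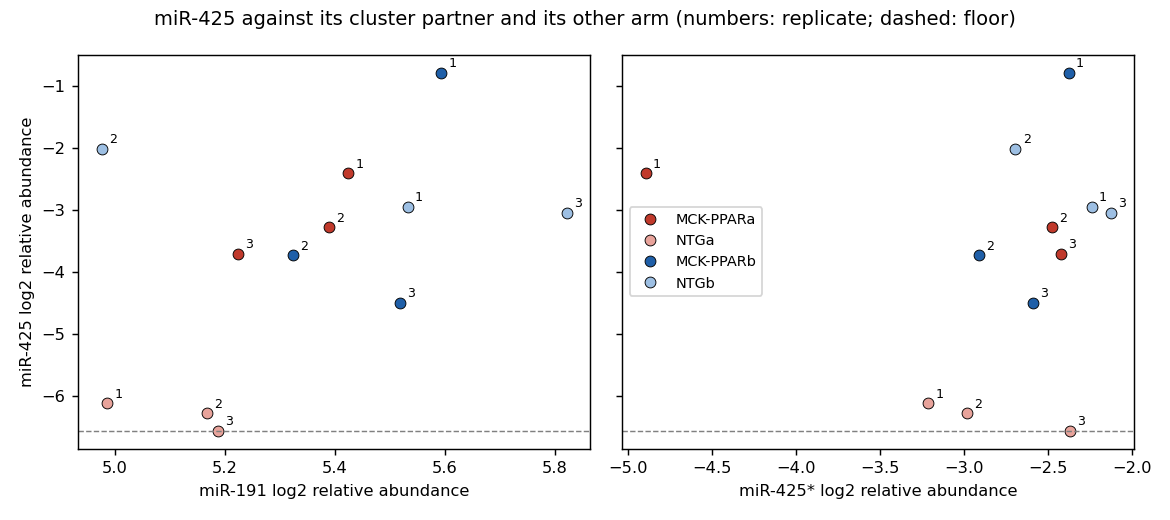
Level of miR-425 against that of miR-191 (left) and miR-425* (right), on the log2 scale, 1 point per animal with its replicate number; the dashed line is the floor of -6.56. The NTGa points lie at the bottom in both panels, MCK-PPARa replicate 1 lies apart at the left for miR-425*, and NTGb replicates 2 and 3 mark the ends of the miR-191 axis.

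Ranked by Pearson's r over the 12 animals, miR-191 came 38th of 267 other assays in likeness to miR-425, and miR-425* 160th (r = -0.0144). The median r over all others was 0.0571. The 5 assays most like miR-425 were miR-221 (r = 0.749), miR-138 (0.738), miR-709 (0.725), miR-592 (0.724) and miR-222 (0.719). miR-221, itself rare at a mean Ct of 32.3, had mean levels of -3.66 in MCK-PPARa and -5.88 in NTGa, and of -3.08 in MCK-PPARb and -4.06 in NTGb. For miR-191 the 5 were miR-133b (r = 0.877), miR-484 (0.851), miR-24 (0.846), miR-193b (0.787) and miR-133a (0.771), all abundant with a mean Ct of 17.4 to 24.3, and miR-425 came 37th. The SD of the raw Ct was 0.124 for miR-133b, 0.144 for miR-484, 0.215 for miR-24, 0.556 for miR-193b and 0.170 for miR-133a. The reference Ct of the card they share with miR-191 had an SD of 0.262. All levels on a card share its reference, whose part in these r values was not tested. The r values describe likeness over 12 animals only.

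The spread of miR-425 was high for its abundance. Its SD over 12 animals was 1.80 on the log2 scale, and among the 85 assays with a mean Ct of 30 to 33 the median was 0.78 and 1 assay, miR-135a, exceeded it. Its residual SD within groups was 1.08, exceeded by 6 of these assays, and the SD of its group means was 1.71, exceeded by 1. miR-425 was picked for its difference between groups, so its SD over 12 animals and that of its group means are not independent of that choice. The SD within a group was 1.96 in MCK-PPARb and 0.22 to 0.66 in the other groups. The lowest, 0.22, was that of NTGa, where replicate 3 was set to the floor. In raw Ct the SD was 0.82 in NTGa, 0.58 in MCK-PPARa, 1.06 in NTGb and 1.95 in MCK-PPARb. miR-425* lay near the middle of the same assays, with an SD of 0.74. Each member had 1 well per animal. On the second card, paired wells of other microRNAs differed by a median of 0.0529 Ct between Ct 20 and 25, where miR-191 lay. They differed by 0.381 between 30 and 32 and by 0.755 between 32 and 35, with a 95th percentile of 2.37 in the last range, where the NTGa wells of miR-425 lay or lay just beyond.

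**Figure D4:**
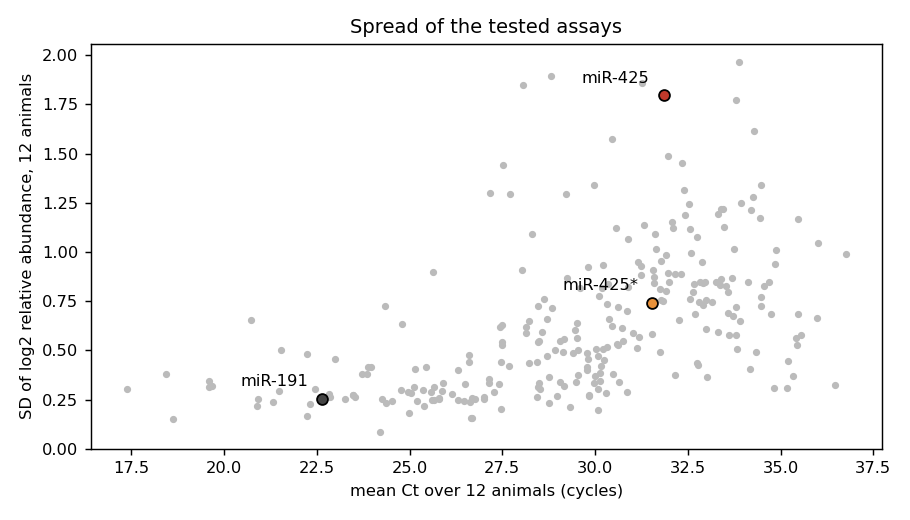
SD over 12 animals of the log2 relative abundance of each of the 268 tested assays against its mean Ct, with an empty well taken as Ct 40. miR-425 lies at 1.80, near the top of the assays of like Ct, while miR-425* at 0.74 and miR-191 at 0.25 lie among theirs.

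The pair was then set beside other microRNAs that share a primary transcript. Of 18 listed co-transcribed pairs, 12 had both members tested. miR-93 was listed with miR-25 and with miR-106b, so the pairs are not all distinct. Whether a listed microRNA is also made from another transcript was not checked. The log2 differences of miR-191 and miR-425 in MCK-PPARa against NTGa were 2.96 apart, more than in any of the other 11 pairs, which were 0.000990 to 2.05 apart with a median of 0.46. The next was miR-221 with miR-222, at 2.05, where miR-221 was also close to the detection limit. In MCK-PPARb against NTGb the members were 0.37 apart, and 3 of the 11 other pairs were farther apart. Between NTGa and NTGb they were 3.32 apart, where the others reached 1.01. The SD of the log ratio over 12 animals was 1.69 for miR-191 and miR-425, and in the other pairs it ran from 0.17 (miR-143 and miR-145) to 1.27. Since miR-425 was picked for its difference between groups, the gaps in the comparisons with NTGa and this SD are not independent of that choice. The 2 partners also differed in abundance, at a mean Ct of 22.6 and 31.8, and miR-425 was at the floor in NTGa replicate 3. By correlation the pair was not at an end: its r of 0.466 over 12 animals compared with a median of 0.382 in the other pairs, 4 of them higher and 7 lower. For deviations from group means, 9 of the 11 had a higher r.

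The same was done for 34 arm pairs with both arms tested, a set chosen after the data were seen. Arms were paired by name, with and without the asterisk, and a name may stand for more than 1 hairpin, which was not checked. miR-425 and miR-425* were 3.60 apart in MCK-PPARa against NTGa, where the other 33 pairs were 0.00810 to 1.76 apart with a median of 0.60. Without MCK-PPARa replicate 1 the differences were 2.83 for miR-425 and 0.38 for miR-425*, and so closer together. The arms were 0.06 apart in MCK-PPARb against NTGb, closer than in 27 of the others. Between NTGa and NTGb they were 3.15 apart, and the next pair, miR-135a with miR-135a*, was 3.10 apart. The mean Ct over 12 animals was 31.8 for miR-425, 31.5 for miR-425* and 22.6 for miR-191. Arms and partners can differ in abundance, and members close to the detection limit vary more. These are descriptions of ranks, with no test, since miR-425 was picked for its difference.

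**Figure D5:**
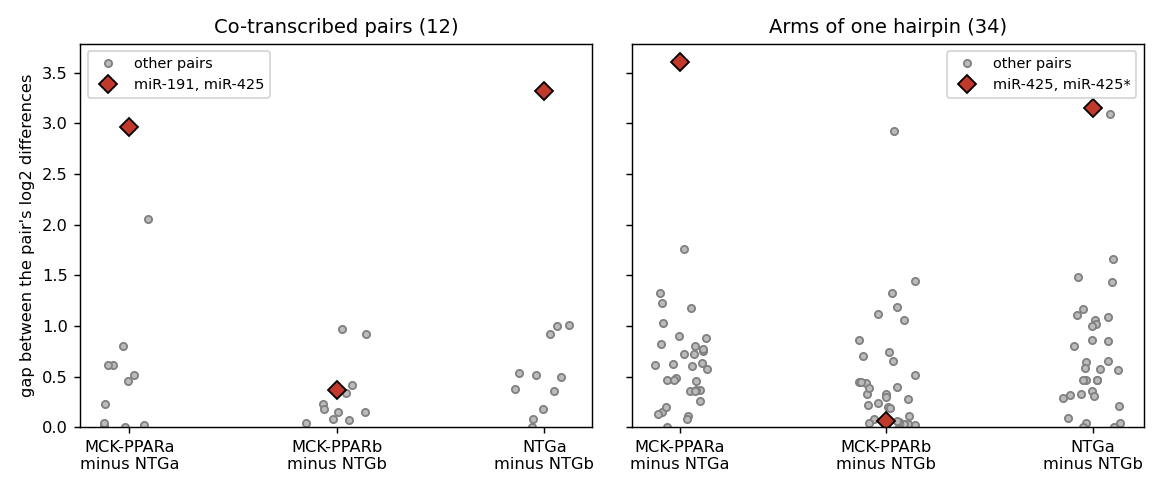
Absolute gap between the log2 differences of 2 microRNAs in 3 comparisons, for 12 co-transcribed pairs (left) and 34 arm pairs matched by name (right). Grey points are the other pairs and red diamonds are the pairs with miR-425. The diamonds are the highest points in the comparisons with NTGa (2.96 and 3.32 left, 3.60 and 3.15 right) and lie among the other points in MCK-PPARb against NTGb. Their height is not independent of the choice of miR-425, which was picked for its difference between groups.

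Markers of other cells in the muscle overlapped between each transgenic group and its littermates. The summed level of the 6 leukocyte microRNAs, of which 5 were detected in all animals, ran from 5.04 to 5.40 in MCK-PPARa and from 5.01 to 5.33 in NTGa on the log2 scale. It ran from 4.75 to 5.08 in MCK-PPARb and from 4.83 to 5.54 in NTGb. The erythroid marker miR-451 was at -1.09 to -0.06 in MCK-PPARa and -1.61 to -0.98 in NTGa, and at -1.27 to -0.90 in MCK-PPARb, just above -2.04 to -1.31 in NTGb, the exception to that overlap. The 2 endothelial markers summed to 8.86 to 9.18 in MCK-PPARa and 8.95 to 9.15 in NTGa, and to 8.52 to 9.15 in MCK-PPARb and 8.34 to 9.43 in NTGb. Of 6 epithelial markers 1, miR-203, was detected in all animals, and miR-200a was detected in 1 animal, at Ct 27.4. The epithelial sum ran from -0.28 to 0.02 in MCK-PPARa and from -0.40 to 1.08 in NTGa, the highest of any group. It ran from -0.52 to 0.02 in MCK-PPARb and from -0.94 to -0.34 in NTGb. The mean Ct of the reference microRNAs on the card of both members was 27.9 to 28.1 in MCK-PPARa and 27.7 to 27.9 in NTGa, and 28.0 to 28.1 in MCK-PPARb and 27.6 to 28.4 in NTGb. The part of these values in the miR-425 result was not tested.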

How the data were processed

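MicroRNA was measured by TaqMan real-time PCR in soleus RNA of 12 mice, run for 40 cycles on 2 cards (24 deposited samples), per the labels' protocols. The authors deposited 1 score per well, the Ct, not normalized, with no Ct in an empty cell; the analysis software and its threshold were not given in the sources used here. All columns were matched by name (0 unmatched). The labels call the replicates biological.

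Wells of an assay were averaged, an empty well beside a called one counting as Ct 40. Detection was a Ct under 35. The reference Ct averaged the microRNAs that were detected in every animal (149 on the first card, 59 on the second). Undetected values, and detected ones that scaled below it, were set to a floor (-6.56 and -5.66), the highest reference Ct of the card minus 35. A microRNA was tested if some group had it detected in each of its animals (268). limma 3.58.1 in R 4.3.3 fitted 4 group means with 8 residual degrees of freedom; calls used Benjamini-Hochberg adjusted p under 0.05. The fit was tested on simulated data. Correlations were computed in Python 3.11.15 and are given without p-values, since the pair was chosen by these levels. The pair and all lists were chosen with earlier results of these data known. The genes named were the members, their other arms, listed markers and co-transcribed pairs, and the 5 assays most correlated with each member; miR-489, miR-135a and the hairpin arms were added after their values were seen. Alternatives varied scaling, detection limit, filter, replicate block and animals. The replicate numbers were not used as pairs.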

Additional observations from a re-analysis of the deposited data

How the results depend on the processing

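Most differences of miR-425 kept their direction and size, while those of miR-191 and the correlation of the pair changed with the scaling. A detection limit of Ct 32, which leaves all NTGa wells of miR-425 undetected, cut the difference of miR-425 in MCK-PPARa against NTGa to 0.49 and its ratio to miR-191 to 0.85 (log2). It also cut the NTGa minus NTGb difference to -0.96 and its ratio to -1.22. The other 7 alternatives gave 3.07 to 3.48 and -3.94 to -3.26 for miR-425. miR-425, picked with these contrasts in view, was called in MCK-PPARa against NTGa only with the replicate block and without MCK-PPARb replicate 1 or 3. Its NTGa minus NTGb call was lost with no scaling, either other detection limit or undetected values missing. With U6 scaling miR-191 was at 0.35 in MCK-PPARb against NTGb and at 0.22 in NTGa minus NTGb, where no scaling gave 0.0162. In MCK-PPARa against NTGa the difference of miR-191 was 0.045 with U6 scaling and 0.048 with no scaling, against 0.23 in the main fit. Assays called between NTGa and NTGb numbered 29 with U6 scaling and 0 at Ct 32, with no detection limit, undetected values missing or assays detected in all 12 animals. In MCK-PPARa against NTGa 3 were called with undetected values missing.

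Leaving out 1 animal gave 4 to 12 calls in MCK-PPARa against NTGa (12 without MCK-PPARb replicate 1), 0 to 1 in MCK-PPARb against NTGb (1 without MCK-PPARb replicate 3 or NTGb replicate 2) and 0 to 7 in NTGa minus NTGb. The last count was 0 without MCK-PPARa replicate 3, NTGa replicate 2 or 3, MCK-PPARb replicate 2 or NTGb replicate 1 or 3, 1 without MCK-PPARa replicate 2, 2 without NTGa replicate 1 and 3 without NTGb replicate 2. The difference of miR-425 in MCK-PPARb against NTGb ran from -1.43 to 0.41, and in the other 2 comparisons its sign held (2.83 to 3.48 in MCK-PPARa against NTGa). The difference of miR-191 ran from -0.20 to 0.21 in MCK-PPARb against NTGb and from -0.56 to -0.16 in NTGa minus NTGb. That of miR-425* in MCK-PPARa against NTGa ran from -0.83 to 0.38. The correlation of the pair ran from 0.346 to 0.722, and within groups from -0.507 to 0.355, with values above 0 only without NTGb replicate 2 (0.355) or 3 (0.0973). With U6 scaling the correlation over animals was -0.184. Within groups it was 0.445 with no scaling and 0.00304 at Ct 32. The cause was not tested. The assay filter that asks for detection in all 12 animals could give no value for miR-425.

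Of 18 same-numbered pairs across groups, 5 deviated together with r over 0.1, against 8 of 36 differently numbered, which cannot exclude pairing. With the number as a block, 9 assays were called in MCK-PPARa against NTGa (6 without), 0 in MCK-PPARb against NTGb (0) and 6 in NTGa minus NTGb (5). 1 well per animal and a Ct above 30 limit what can be said of miR-425.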
